A study of Mus musculus with 6 samples.

Results

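The genes described here are 10 genes of T cells and natural killer (NK) cells: *Cd3e*, *Cd3g*, *Cd8a* and *Cd8b1* of the T cell receptor complex and its coreceptor, *Nkg7*, *Gzma*, *Gzmb* and *Prf1* of the cytotoxic granule, and *Il2rb* and *Il2rg* of the interleukin-2 receptor. They were given as a list of symbols, and all 10 were found among the 24346 genes measured in the mouse heart. The data are RNA sequencing of 6 heart libraries, 2 in each of 3 groups of C57BL/6J male mice. Mice of the C group ate chow. Those of the N group ate the NASH diet, which is rich in fat, cholesterol and sucrose and has added bile acid, and those of the NP group ate it with pemafibrate at 0.1 mg/kg. Pemafibrate is a selective modulator of PPARα, a nuclear receptor that regulates lipid metabolism. The NASH diet is common to the N and NP groups, and none of the 3 groups received pemafibrate with chow. The labels give 3 weeks of feeding, whereas the study's methods give a longer period. The tissue label is heart, whereas the labels' text on RNA extraction names the liver. Whether a library came from a single heart or from pooled hearts, and from which chambers, is not given in the sources used here, so that *P* values measure the spread between these libraries, which may be technical.

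Cytotoxic T cells recognise peptides on MHC class I molecules through the T cell receptor, which signals through the CD3 chains and is helped by the CD8 coreceptor, whereas NK cells use receptors of their own. Both kinds of cell kill by releasing granules in which perforin opens the way for granzymes, serine proteases that start cell death in the target. Both kinds depend on interleukin-2 or interleukin-15, which signal through the shared chains encoded by *Il2rb* and *Il2rg*. The healthy heart holds few such cells, and they are known to enter it in myocarditis and in other inflamed states.

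The members lie on 8 chromosomes of the RefSeq annotation of GRCm38.p6, which corresponds to mm10. *Cd3g* and *Cd3e* are neighbours at chr9:44969572-44980431 and chr9:44998735-45009663, and *Cd8b1* and *Cd8a* are neighbours at chr6:71322788-71337492 and chr6:71373427-71379171. *Nkg7* lies at chr7:43437138-43438246, *Prf1* at chr10:61297751-61304684, *Gzma* at chr13:113093824-113100981, *Gzmb* at chr14:56258836-56262334, *Il2rb* at chr15:78479256-78511621 and *Il2rg* at chrX:101264385-101268255. RefSeq windows from 250 bases before to 50 bases after the transcription start were given for 8 of the 10 members, all but *Cd8b1* and *Il2rb*. The windows of *Cd3e* and *Prf1* are set on a start inside the gene span given above, so that part of what they hold before that start lies within the gene. The windows were searched on both strands for 5 motifs, namely AGGTGTG (T-box), TGTGGT (Runx), CAGGAAG (Ets), TTC and GAA with any 3 bases between them (GAS), and GAAA and GAAA with any 2 bases between them (ISRE). The T-box and Runx motifs can overlap each other, although no matches overlapped in these 8 windows. The part before the start is shown for the granule genes *Nkg7*, *Gzma* and *Gzmb*, which were high in the N libraries, and for *Il2rg*, the highest member, with matches in capitals. The windows printed are chr7:43436888-43437137 on the plus strand for *Nkg7*, and chr13:113100982-113101231, chr14:56262335-56262584 and chrX:101268256-101268505 on the minus strand for *Gzma*, *Gzmb* and *Il2rg*.
Nkg7: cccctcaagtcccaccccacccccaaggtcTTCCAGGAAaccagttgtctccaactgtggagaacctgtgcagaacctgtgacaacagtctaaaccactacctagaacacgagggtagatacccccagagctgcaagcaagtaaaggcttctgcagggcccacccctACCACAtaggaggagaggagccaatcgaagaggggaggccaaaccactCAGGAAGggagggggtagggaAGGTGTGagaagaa
Gzma: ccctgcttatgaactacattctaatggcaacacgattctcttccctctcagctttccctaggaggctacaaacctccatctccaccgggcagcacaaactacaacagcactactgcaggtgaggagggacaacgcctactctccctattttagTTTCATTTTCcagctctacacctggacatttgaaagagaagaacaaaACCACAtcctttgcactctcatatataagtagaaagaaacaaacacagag
Gzmb: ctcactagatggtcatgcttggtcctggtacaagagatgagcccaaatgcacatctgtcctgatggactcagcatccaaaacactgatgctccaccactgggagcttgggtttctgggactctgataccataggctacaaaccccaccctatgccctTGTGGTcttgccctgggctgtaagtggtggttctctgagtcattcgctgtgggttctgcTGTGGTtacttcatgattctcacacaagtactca
Il2rg: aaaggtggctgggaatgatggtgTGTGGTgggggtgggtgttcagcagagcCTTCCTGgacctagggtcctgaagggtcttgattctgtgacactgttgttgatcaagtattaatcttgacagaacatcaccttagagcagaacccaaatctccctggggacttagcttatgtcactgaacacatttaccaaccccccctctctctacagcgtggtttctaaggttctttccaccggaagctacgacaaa
In *Nkg7* the capitals mark a GAS match at -220 to -212 from the start, a Runx match at -83 to -78, an Ets match at -35 to -29 and a T-box match at -14 to -8. In *Gzma* they mark an ISRE match at -97 to -88 and a Runx match at -50 to -45. In *Gzmb* they mark Runx matches at -93 to -88 and at -34 to -29. In *Il2rg* they mark a Runx match at -227 to -222 and an Ets match at -199 to -193.

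Over the 300-base windows, the Runx motif was found in 5 of the 8 members (*Nkg7*, *Gzma*, *Gzmb*, *Prf1* and *Il2rg*) and in 16.8% of all 32851 windows. The Ets motif was found in 4 of the 8 (*Cd3e*, *Nkg7*, *Prf1* and *Il2rg*) and in 13.3% of all windows. The GAS motif was found in 2 of the 8 (*Nkg7* and *Gzmb*, the latter after the start) and in 8.30% of all windows. The T-box motif was found in 1 of the 8 (*Nkg7*) and in 5.84% of all windows, and the ISRE motif in 1 of the 8 (*Gzma*) and in 3.44% of all windows. These are matches of letters and not measured binding sites, and binding was not measured in these libraries.

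The values are FPKM, the number of fragments of a gene scaled to the length of its transcript and to the number of mapped fragments, so that they can be compared between genes per length. The low FPKM values are multiples of what 1 read adds, and from these steps the depth was estimated at 21400000 to 26000000 reads in C, 8660000 to 8720000 in N and 8210000 to 8430000 in NP. The C libraries thus had 2.45 to 3.17 times the reads of the others, so that depth and diet cannot be told apart against the C group, whereas N and NP were sequenced to a similar depth. The C libraries also held little RNA of atrial genes, as described with the marker genes. A value of up to 3 reads was treated as lying at the read floor. Of the 20 values of the members in each group, 13 lay at or under this floor for C, 0 for N and 16 for NP. These reads rest on 1 transcript length per gene, the coding transcript whose low values lay nearest to whole reads. With the shortest coding transcript, *Cd3g* would have 2 and 1 reads in the N libraries, under the floor, and *Nkg7* 15 and 14. In bulk tissue, fewer cells of a type and less RNA per cell cannot be told apart.

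Of the 4 cytotoxic granule genes, *Nkg7* passed the threshold with and without the filter on low values, a mean of at least 0.5 FPKM. *Gzmb* passed it only with the filter, and *Prf1*, which lay under that mean, only without it. These genes were higher in N relative to C and lower in NP relative to N, whereas *Gzma* did not pass the threshold. *Nkg7* encodes a granule membrane protein of T and NK cells that takes part in degranulation. Its level was 0.0630 and 0.229 FPKM in C, 3.58 and 3.40 in N and 0.201 and 0 in NP. Both N libraries were high and nearly equal, and all of the C and NP libraries were low, at 1 and 3 reads in C and 1 and 0 reads in NP against 21 and 20 reads in N. *Nkg7* rose by 1.97 ± 0.16 (SE) on the log2(FPKM + 1) scale in N relative to C (adjusted *P* = 0.00515, limma) and fell by 2.03 ± 0.16 in NP relative to N (adjusted *P* = 0.00465, limma). Of the members, *Nkg7* alone stayed past the threshold in both comparisons whichever library was left out, although adding 0.1 instead of 1 before taking logarithms gave it adjusted *P* values of 0.0652 and 0.0513.

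*Gzmb* encodes granzyme B, which cleaves caspases and their substrates. Its level was 0.157 and 0.0381 FPKM in C, 1.69 and 2.65 in N and 0.301 and 0 in NP, corresponding to 5 and 1, 18 and 29, and 3 and 0 reads. The N libraries did not overlap with the others, and N replicate 2 was the higher. *Gzmb* rose by 1.52 ± 0.22 (SE) in N relative to C (adjusted *P* = 0.0381, limma) and fell by 1.46 ± 0.22 in NP relative to N (adjusted *P* = 0.0473, limma). Both calls were close to the threshold of 0.05. When any 1 of the 6 libraries was left out, the adjusted *P* values were 0.0585 to 0.232 and 0.0807 to 0.214, and with no filter on low values they were 0.0580 and 0.0681. With the replicate number as a block, the adjusted *P* value in NP relative to N was 0.0657 (limma).

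*Gzma* encodes granzyme A, a protease that cleaves substrates other than those of granzyme B. Its level was 0.284 and 0.138 FPKM in C, 1.19 and 2.90 in N and 0.182 and 0.175 in NP, corresponding to 5 and 2, 7 and 17, and 1 and 1 reads. The N libraries lay above the others but differed widely from each other, with an SD of 1.21 around a mean of 2.05. The difference was 1.27 ± 0.28 (SE) in N relative to C (adjusted *P* = 0.120, limma) and -1.31 ± 0.28 in NP relative to N (adjusted *P* = 0.152, limma), and neither passed the threshold. Without N replicate 1, the lower of the N libraries, the adjusted *P* values were 0.0333 and 0.0327.

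*Prf1* encodes perforin, the protein that forms pores. Its level was 0 and 0.0498 FPKM in C, 0.674 and 0.619 in N and 0 and 0.127 in NP, which corresponds to 10 reads in each N library and 0 to 2 reads in the others. The N libraries lay above all of the others and were close to each other, whereas the C and NP libraries overlapped. Its mean over the 6 libraries, 0.245 FPKM, lay under the 0.5 FPKM required for the main test, and it was tested among all 17880 genes that were above 0 in any library. In that fit *Prf1* rose by 0.68 ± 0.07 (SE) in N relative to C (adjusted *P* = 0.0349, limma) and fell by 0.63 ± 0.07 in NP relative to N (adjusted *P* = 0.0464, limma). Leaving out any 1 library ended both calls, with adjusted *P* values of 0.0822 to 0.199 and 0.133 to 0.233, and so did the replicate number as a block, with 0.0612 and 0.0846 (limma).

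**Figure D1:**
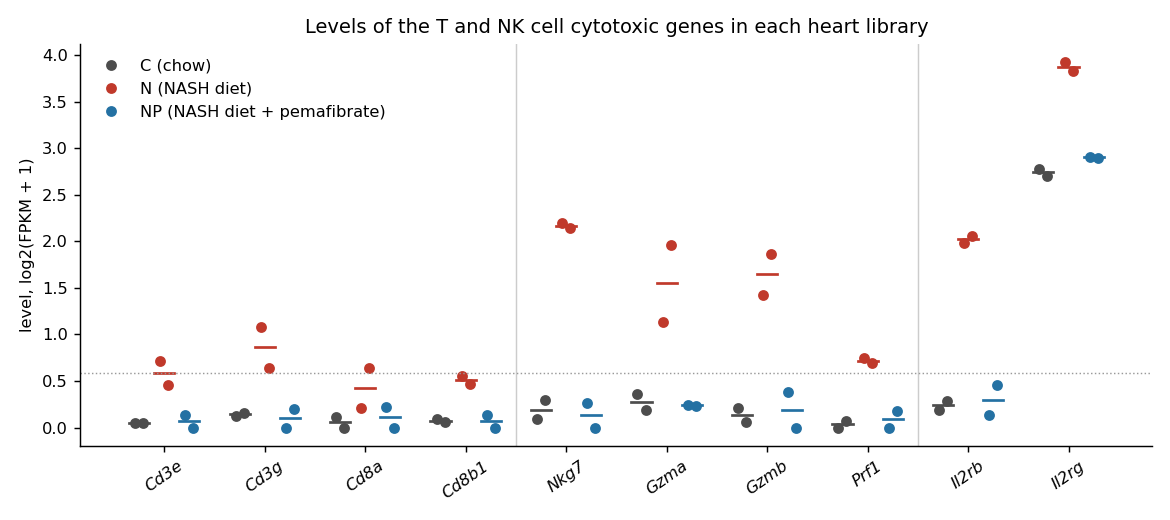
Level of each member in each library on the log2(FPKM + 1) scale, grouped by role, with short lines at the group means (n = 2) and a dotted line at 0.5 FPKM. The N libraries lie above the C libraries for all 10 genes, and above the NP libraries for all but Cd8a, for which NP replicate 1 (0.165 FPKM) lies above N replicate 1 (0.156 FPKM).

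The interleukin-2 receptor genes had the most reads of the members in the N group, and both passed the threshold. *Il2rb* encodes the beta chain shared by the receptors of interleukin-2 and interleukin-15. Its level was 0.137 and 0.221 FPKM in C, 2.95 and 3.17 in N and 0.0971 and 0.377 in NP. The N libraries were high and close to each other, and the C and NP libraries overlapped. *Il2rb* rose by 1.79 ± 0.17 (SE) in N relative to C (adjusted *P* = 0.00814, limma) and fell by 1.72 ± 0.17 in NP relative to N (adjusted *P* = 0.00936, limma). Without C replicate 2 or N replicate 2, the adjusted *P* value between the N and C groups was 0.0625 and 0.0574, and without N replicate 1 or N replicate 2, that between the NP and N groups was 0.0560 and 0.0638. The reads behind *Il2rb* depend on which of its transcripts was counted, from 43 reads in N replicate 1 with the shortest coding transcript to 102 with the longest.

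*Il2rg* encodes the common gamma chain, which the receptors of several other interleukins also use. Its level was 5.86 and 5.50 FPKM in C, 14.2 and 13.2 in N and 6.49 and 6.44 in NP. It was the only member far above the read floor in every library, with 78 to 224 reads for its longest coding transcript and 21 to 61 for its shortest. The NP libraries lay slightly above the C libraries. *Il2rg* rose by 1.14 ± 0.11 (SE) in N relative to C (adjusted *P* = 0.00825, limma) and fell by 0.98 ± 0.11 in NP relative to N (adjusted *P* = 0.0149, limma). Without C replicate 1, C replicate 2 or N replicate 2, the adjusted *P* value between the N and C groups was 0.0681, 0.137 and 0.0517, and leaving out any 1 library gave 0.0670 to 0.0980 between the NP and N groups.

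The genes of the T cell receptor complex and coreceptor were at most at 1.12 FPKM in any library, and 0 of the 4 passed the threshold in limma's test without a filter, although 3 of the 4 had an unadjusted *P* value under 0.05 in each comparison. *Cd3e* and *Cd3g* encode signalling chains of the complex. *Cd3e* was at 0.0309 and 0.0375 FPKM in C, 0.646 and 0.372 in N and 0.0986 and 0 in NP, corresponding to 1 and 1, 7 and 4, and 1 and 0 reads. *Cd3g* was at 0.0933 and 0.113 FPKM in C, 1.12 and 0.561 in N and 0 and 0.144 in NP, corresponding to 2 and 2, 8 and 4, and 0 and 1 reads. For both genes the N libraries lay above all of the others, and N replicate 1 was the higher. In N relative to C, the difference of *Cd3e* was 0.54 ± 0.10 (SE, adjusted *P* = 0.122, limma without a filter) and that of *Cd3g* was 0.72 ± 0.16 (adjusted *P* = 0.158). The differences were -0.52 ± 0.10 (adjusted *P* = 0.166, limma without a filter) and -0.77 ± 0.16 (adjusted *P* = 0.189) in NP relative to N.

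*Cd8a* and *Cd8b1* encode the chains of the CD8 coreceptor, which binds MHC class I. *Cd8a* was at 0.0784 and 0 FPKM in C, 0.156 and 0.554 in N and 0.165 and 0 in NP, corresponding to 6 and 0, 4 and 14, and 4 and 0 reads. The N and NP groups overlapped for *Cd8a*, and N replicate 2 alone stood above the others. *Cd8b1* was at 0.0628 and 0.0381 FPKM in C, 0.469 and 0.379 in N and 0.100 and 0 in NP, corresponding to 2 and 1, 5 and 4, and 1 and 0 reads. The N libraries of *Cd8b1* lay above the others, at 1 to 2 reads over the floor. In N relative to C, the difference was 0.37 ± 0.16 (SE) for *Cd8a* (adjusted *P* = 0.405, limma without a filter) and 0.44 ± 0.07 for *Cd8b1* (adjusted *P* = 0.0763). The differences were -0.31 ± 0.16 (adjusted *P* = 0.757, limma without a filter) and -0.44 ± 0.07 (adjusted *P* = 0.0845) in NP relative to N.

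**Figure D2:**
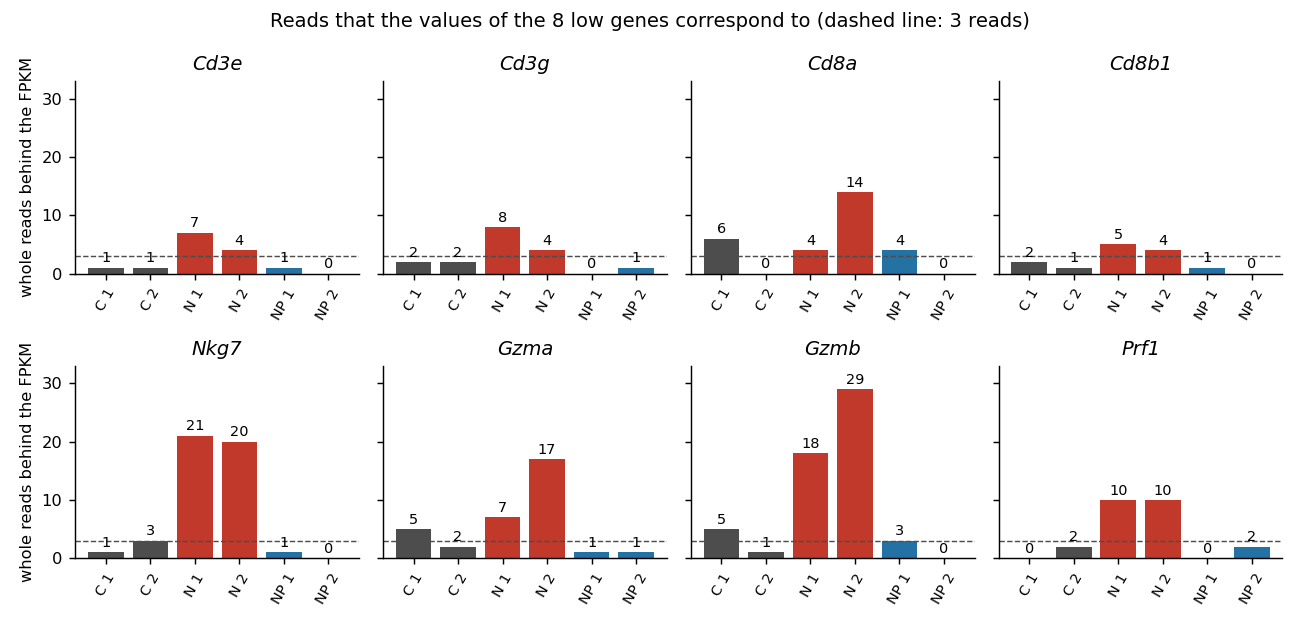
Whole reads that the FPKM of the 8 low members correspond to in each library, with a dashed line at the floor of 3 reads. Although the C libraries are 2.45 to 3.17 times as deep, the N libraries hold the most reads for every gene except Cd8a, for which C replicate 1 (6 reads) is above N replicate 1 (4 reads).

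Over all 10 members, 4 passed the threshold in N relative to C when no filter was used (*Nkg7*, *Prf1*, *Il2rb* and *Il2rg*, all higher), whereas 0.951% of the 17880 genes were called higher. The same 4 members were called lower in NP relative to N, whereas 0.789% of all genes were. With the filter on a mean of at least 0.5 FPKM, 5 of the 10 members were tested, and 4 of them were called in each of these comparisons (*Nkg7*, *Gzmb*, *Il2rb* and *Il2rg*), whereas 1.48% of the 12923 genes were called higher in the N group and 1.39% lower in the NP group. These 5 members cannot stand for the 10, because *Nkg7*, *Gzma*, *Gzmb* and *Il2rb* reached the required mean through the N libraries alone. The N libraries lay above both C libraries for 10 of the 10 members, as they did for 22.0% of all genes without a filter, and the NP libraries lay below both N libraries for 9 of the 10, as they did for 14.1% of all genes. The median difference of the 10 members was 0.93 in N relative to C, whereas that of all genes was -0.01. It was -0.87 in NP relative to N, whereas that of all genes was 0.00. The N group is part of both comparisons, so that the opposite signs are not independent of each other.

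In NP relative to C, 0 of the 10 members passed the threshold in limma's test and 0 had an unadjusted *P* value under 0.05. With the filter 0.0387% of all genes were called, and without it 0.0% were, although 1040 and 1353 genes had an unadjusted *P* value under 0.05. The differences of the members were between -0.06 for *Nkg7* and 0.16 for *Il2rg*. The 95% confidence interval was -0.10 to 0.42 for *Il2rg*, -0.46 to 0.34 for *Nkg7*, -0.35 to 0.47 for *Il2rb* and -0.73 to 0.66 for *Gzma*. Differences within these intervals may thus exist. The intervals are not limits of detection, because a call also had to pass the threshold after adjustment over all genes tested. Most of the values compared here were of 0 to 3 reads.

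**Figure D3:**
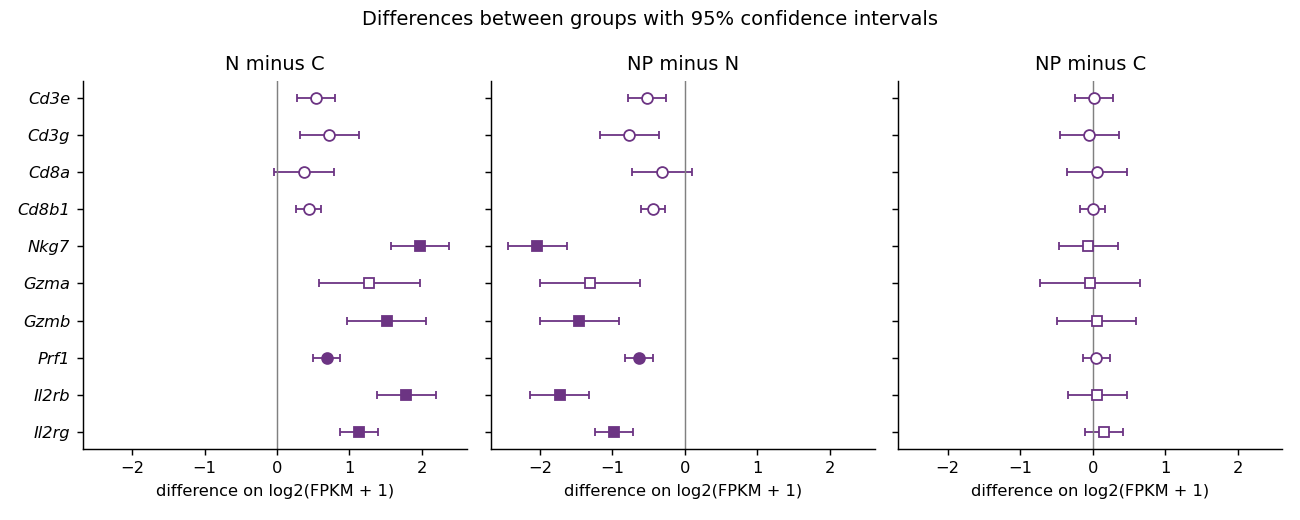
Difference of each member between groups on the log2(FPKM + 1) scale with its 95% confidence interval. Squares are genes tested with the filter on low values, circles are genes tested without it, and filled symbols have an adjusted P value under 0.05, from Nkg7 (1.97 and -2.03) to Prf1 (0.68 and -0.63), whereas all symbols are open between the NP and C groups.

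The scale log2(FPKM + 1) understates the change of low genes, and the reads give a relative change. These reads were estimated from the same FPKM and were not counted. Summed over the 8 members other than *Il2rb* and *Il2rg*, the values correspond to 22 and 12 reads in C, 80 and 102 in N and 11 and 4 in NP. Per read sequenced, the N group had 14.6 times the reads of the C group (95% interval 10.1 to 21.7) and 11.6 times those of the NP group (6.86 to 21.2). The NP group had 1.26 times those of the C group (0.636 to 2.37). For the 4 granule genes the ratio of the N group to the C group was 18.96 (11.7 to 32.5), and for the 4 genes of the T cell receptor complex and coreceptor it was 9.10 (5.03 to 17.4). These intervals overlap, and they are exact intervals that cover counting error only, not the spread between hearts. Among these 8 genes the same ratio was between 8.19 for *Cd3g*, *Cd8a* and *Cd8b1* (2.48 to 34.8 for *Cd3g*) and 28.0 for *Nkg7* (10.1 to 107.5). The ratio of the N group to the NP group was between 4.31 for *Cd8a* (1.42 to 17.5) and 39.3 for *Nkg7* (6.66 to 1588), where a single NP read stands against 41 N reads. For *Il2rg*, with many more reads, the ratios were 2.40 (2.07 to 2.78) and 2.11 (1.75 to 2.57). The intervals of *Il2rg* rest on its longest coding transcript and would be wider with the fewer reads of its shortest.

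In the N group, the order of the mean levels per length was *Il2rg* at 13.7 ± 0.683 FPKM (SD, n = 2), *Nkg7* at 3.49 ± 0.125, *Il2rb* at 3.06 ± 0.154, *Gzmb* at 2.17 ± 0.680 and *Gzma* at 2.05 ± 1.21. Below them were *Cd3g* at 0.838 ± 0.392 FPKM, *Prf1* at 0.647 ± 0.0388, *Cd3e* at 0.509 ± 0.194, *Cd8b1* at 0.424 ± 0.0641 and *Cd8a* at 0.355 ± 0.281. *Il2rg* stood apart from the rest, whereas *Gzmb* and *Gzma* overlapped, and so did the libraries of *Cd3g*, *Prf1*, *Cd3e*, *Cd8b1* and *Cd8a* with those of their neighbours in the order. Among the genes above 0 in the N group, *Il2rg* lay at the percentile 72.2, *Nkg7* at 43.8 and *Cd8a* at 18.9, so that even in the N group all members but *Il2rg* were below the middle of the expressed genes. In the C and NP groups *Il2rg* was again the highest, at 5.68 ± 0.254 and 6.46 ± 0.0296 FPKM, and the other 9 were at most at 0.377 FPKM in every library, where their order cannot be read at this depth.

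The N libraries did not have the same proportions of these genes. *Cd3e*, *Cd3g* and *Cd8b1* were higher in N replicate 1, whereas *Cd8a*, *Gzma* and *Gzmb* were higher in N replicate 2. Summed, *Cd3e*, *Cd3g*, *Cd8a* and *Cd8b1* were at 2.39 and 1.87 FPKM, and *Nkg7*, *Gzma*, *Gzmb* and *Prf1* were at 7.13 and 9.57 FPKM in N replicates 1 and 2. With 1 library on each side this difference has no replicate check.

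*Ptprc* encodes CD45, the surface phosphatase carried by nearly all leukocytes, and was taken as a reference gene. Its level was 2.04 and 1.88 FPKM in C, 6.41 and 6.09 in N and 1.42 and 1.18 in NP. *Ptprc* rose by 1.29 in N relative to C (adjusted *P* = 0.00875, limma) and fell by 1.66 in NP relative to N (adjusted *P* = 0.00336, limma). As a percentage of the FPKM of *Ptprc*, the sum of the 4 granule genes was 24.7% and 24.3% in C, 111.3% and 157.2% in N and 48.1% and 25.6% in NP. The granule genes thus differed by more than *Ptprc* did, and the N libraries did not overlap with the others. The sum of the T cell receptor complex and coreceptor genes was 12.99% and 10.1% of *Ptprc* in C, 37.3% and 30.6% in N and 25.6% and 12.2% in NP. *Il2rb* was at 6.70% and 11.8% of *Ptprc* in C, 46.1% and 52.1% in N and 6.83% and 32.0% in NP. *Il2rg* went the other way, at 286.8% and 293.2% of *Ptprc* in C, 221.1% and 216.8% in N and 456.1% and 546.6% in NP. These percentages are a description without a test, and those of the C and NP libraries rest on few reads of the members other than *Il2rg*, and the reads of *Ptprc* in the NP libraries lie between 3 and 2 with its shortest coding transcript and 57 and 48 with its longest.

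**Figure D4:**
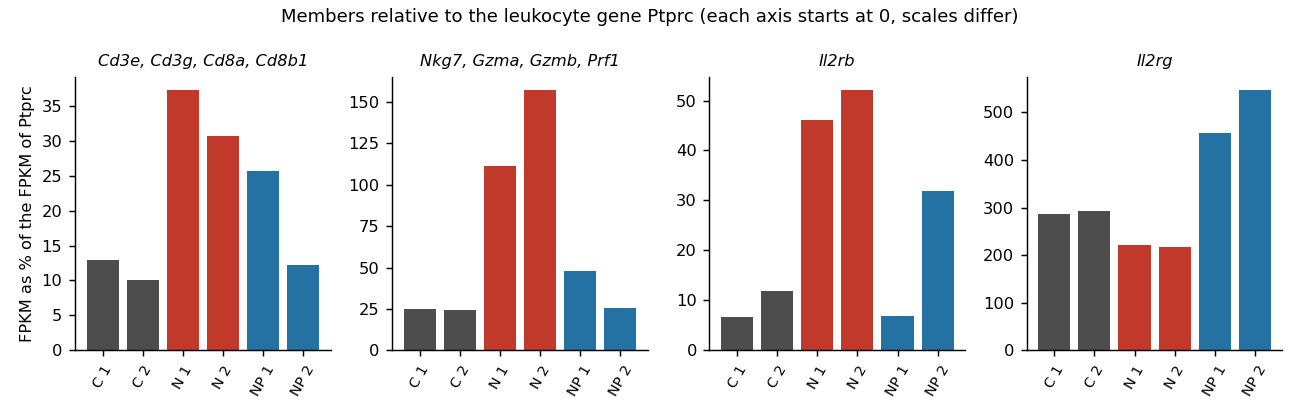
FPKM of the members as a percentage of the FPKM of Ptprc in each library, as sums for the T cell receptor complex and coreceptor genes and for the granule genes. The granule genes stand at 111.3% and 157.2% in the N libraries against 24.3% to 48.1% elsewhere, whereas Il2rg is lowest in the N libraries, at 216.8% and 221.1%.

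Other genes of the same pathways were taken from fixed lists. Of 26 further genes of T cell receptor signalling, 6 passed the filter on low values and 0 of these were called by limma in either comparison, although 2 had an unadjusted *P* value under 0.05 in each, with medians of 0.28 in N relative to C and -0.31 in NP relative to N. The medians of all genes tested were -0.03 and 0.03. Without the filter, 1 of the 26 was called in each comparison, namely *Lck*, which encodes the kinase that phosphorylates the CD3 chains. *Lck* was at 0.0608 and 0.123 FPKM in C, 1.13 and 0.980 in N and 0.190 and 0.0628 in NP, corresponding to 3 and 5, 18 and 16, and 3 and 1 reads. It rose by 0.91 (adjusted *P* = 0.0248, limma without a filter) and fell by 0.87 (adjusted *P* = 0.0291). *Cd3d*, which encodes the remaining CD3 chain beside *Cd3e* and *Cd3g*, was at 0.0338 and 0.0821 FPKM in C, 0.202 and 0.408 in N and 0 in both NP libraries (adjusted *P* = 0.228 and 0.215 in the 2 comparisons, limma without a filter). Even with its longest coding transcript, *Cd3d* had at most 5 reads in any library. *Cd4*, the coreceptor of helper T cells, was at 0.340 and 0.302 FPKM in C, 0.665 and 0.515 in N and 0.251 and 0.325 in NP (adjusted *P* = 0.226 and 0.263). *Ctla4*, also a T cell gene, did not have the pattern of the members, with 0.987 and 1.52 FPKM in the C libraries against 0.350 and 1.061 in the N libraries. *Lck* was named by the rule for called genes, and *Cd3d*, *Cd4* and *Ctla4* were chosen after their values were seen.

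Of 22 further genes of granule exocytosis and killing, 15 passed the filter, with medians of 0.22 and -0.08, and 1 was called in each comparison. This was *Tnfsf10*, which encodes the death ligand TRAIL. It was at 4.56 and 4.27 FPKM in C, 12.97 and 14.24 in N and 4.99 and 4.43 in NP, and rose by 1.43 (adjusted *P* = 0.00506, limma) and fell by 1.36 (adjusted *P* = 0.00621). The other granzymes in the list, chosen here after their values were seen, did not behave alike. *Gzmc* was listed at 0 in every C and NP library and at 0.784 and 0.473 FPKM in N (adjusted *P* = 0.0619 and 0.0684 in the 2 comparisons, limma without a filter), and *Gzmk* was above 0 in N replicate 2 alone, at 0.392 FPKM. For *Gzmc* these are 5 and 3 reads in the N libraries, and for *Gzmk* 3 reads. *Gzmm* was at 5.06 to 5.70 FPKM in all 6 libraries, with a difference of 0.04 in N relative to C (adjusted *P* = 0.917, limma). Granzyme genes are a family of similar sequences, and how reads that match several of them were assigned is not given in the sources used here. Of the 15 genes, 7 had an unadjusted *P* value under 0.05 in N relative to C and 5 in NP relative to N. *Srgn*, which encodes the granule proteoglycan serglycin, was at 32.4 and 29.3 FPKM in C, 41.5 and 51.7 in N and 34.1 and 32.3 in NP, with differences of 0.57 and -0.47 (adjusted *P* = 0.140 and 0.361, limma). *Lamp1*, a membrane protein of lysosomes and granules in many cell types, was at 258 to 285 FPKM in all 6 libraries. Both were also chosen after their values were seen. *Fasl*, a death ligand, was at 0 to 0.202 FPKM, and *Ifng*, which encodes interferon-gamma, was above 0 in N replicate 2 alone, at 0.114 FPKM. These values lie at the read floor, with 0 to 3 reads for *Fasl* and 1 read for *Ifng*.

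Of 23 genes of NK cell receptors and regulators, 7 passed the filter, with medians of 0.36 and -0.16, and 2 were called in each comparison. *Ccl5*, a chemokine made by activated T and NK cells and by other cells, was at 0.953 and 0.723 FPKM in C, 14.6 and 18.8 in N and 0.761 and 0 in NP. It rose by 3.26 (adjusted *P* = 0.00648, limma) and fell by 3.73 (adjusted *P* = 0.00380). *Xcl1*, a chemokine of T and NK cells that attracts cross-presenting dendritic cells, was at 0.394 and 0.159 FPKM in C, 3.92 and 2.33 in N and 0.419 and 0.399 in NP, and it rose by 1.67 (adjusted *P* = 0.0285, limma) and fell by 1.52 (adjusted *P* = 0.0402). The values of *Xcl1* correspond to 3 and 1 reads in C, 11 and 7 in N and 1 and 1 in NP. Without the filter, *Klrk1*, which encodes the activating receptor NKG2D, and *Tbx21*, which encodes the transcription factor T-bet, were called beside *Ccl5*, so that 3 of the 22 genes above 0 were called in each comparison, and *Xcl1* was not (adjusted *P* = 0.0520 and 0.0699). *Klrk1* was at 0.0493 and 0.139 FPKM in C, 0.673 and 0.709 in N and 0.0406 and 0 in NP (0.63, adjusted *P* = 0.0265, and -0.73, adjusted *P* = 0.0201, limma without a filter). With its shortest coding transcript these are 1 and 2 reads in C, 5 and 5 in N and 0 and 0 in NP. With its longest they are 4 and 9, 17 and 19, and 1 and 0 reads. *Tbx21* was at 0.0645 and 0.0587 FPKM in C, 0.627 and 0.537 in N and 0.0515 and 0 in NP (0.57, adjusted *P* = 0.0254, and -0.62, adjusted *P* = 0.0221, limma without a filter). The values of *Tbx21* correspond to 4 and 3 reads in C, 12 and 11 in N and 1 and 0 in NP. *Ncr1*, the NK cell receptor NKp46, was at 0.0906 and 0.110 FPKM in C, 0.542 and 0.911 in N and 0 and 0.0934 in NP, and did not pass the threshold (adjusted *P* = 0.113 and 0.102, limma without a filter). These are 3 and 3 reads in C, 6 and 10 in N and 0 and 1 in NP.

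Of 21 genes of the ligands, further receptors and signalling of interleukin-2 and interleukin-15, 14 passed the filter, with medians of 0.18 and -0.11. In N relative to C, 0 were called by limma and 4 had an unadjusted *P* value under 0.05, and 1 was called in NP relative to N, *Socs3*, a feedback inhibitor of cytokine signalling, which fell by 0.76 (adjusted *P* = 0.0473, limma). The ligand *Il15* was at 21.1 and 31.6 FPKM in C, 15.9 and 29.0 in N and 20.7 and 28.5 in NP, and these ranges overlapped (adjusted *P* = 0.789 and 0.994, limma). *Il15ra*, the chain that presents interleukin-15, was at 11.5 to 15.1 FPKM, and *Il2ra*, the alpha chain of the high-affinity interleukin-2 receptor, was at 0.761 to 1.31 FPKM. *Il2* itself was listed at 0 in all 6 libraries. *Il21r*, a further receptor chain of the list chosen after its values were seen, lay under the filter. Its values correspond to 20 and 18 reads in the deeper C libraries, 20 and 17 in N and 6 and 3 in NP. Thus, *Il2rb* and *Il2rg* rose, whereas no difference in the other receptor chains or ligands of the list passed the threshold, with or without the filter. That does not show that they were unchanged.

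**Figure D5:**
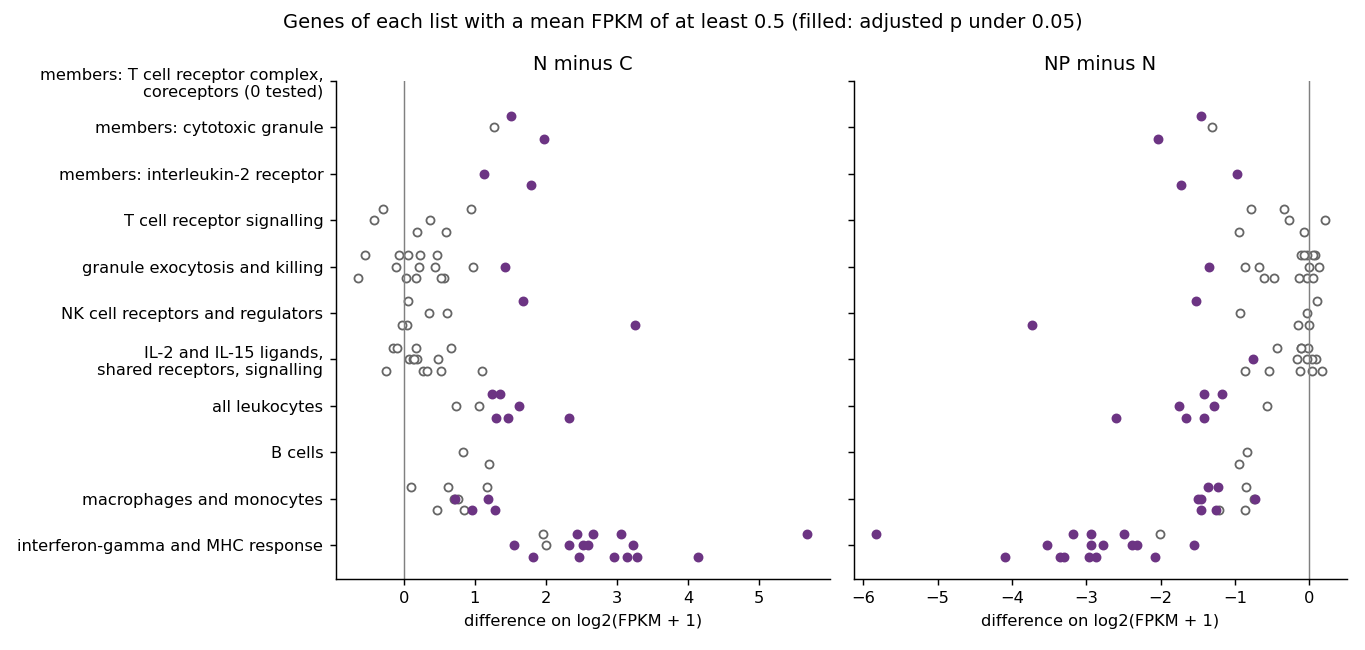
Differences on the log2(FPKM + 1) scale of the genes of each list that passed the filter on low values, with filled points for adjusted P values under 0.05. In the 4 pathway lists most points lie near 0 (medians of 0.18 to 0.36 in N relative to C), whereas the leukocyte genes (median 1.32) and the genes of the interferon-gamma and MHC response (median 2.59) lie to the right in N relative to C and to the left in NP relative to N.

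Marker genes of other cells moved together with the members in part. Of 8 general leukocyte genes, 6 were higher in N relative to C and 7 were lower in NP relative to N, and their summed level was 50.8 to 59.0 FPKM in C, 150.3 to 161.4 in N and 52.0 to 57.1 in NP. Of 12 macrophage and monocyte genes, 11 passed the filter, and 4 were higher and 7 were lower in these comparisons. Among them was *Adgre1* (0.96, adjusted *P* = 0.0304, and -1.25, adjusted *P* = 0.0129, limma). The sum of the 12 genes was 320.4 to 353.8, 547.8 to 644.5 and 231.5 to 264.4 FPKM. Of 10 B cell genes, 2 passed the filter and 0 were called by limma, although both had an unadjusted *P* value under 0.05 in each comparison and *Ms4a1*, which encodes CD20, was called without the filter (0.93, adjusted *P* = 0.0241, and -0.77, adjusted *P* = 0.0379, limma without a filter), and their sum was 1.42 to 1.73, 6.86 to 6.998 and 1.996 to 2.35 FPKM. Dendritic cell, neutrophil, mast cell and red blood cell genes were also listed, of which 3, 3, 5 and 3 passed the filter. In N relative to C their medians were 0.07, 0.51, 0.32 and 1.21, and 0 were called by limma. Unadjusted *P* values were under 0.05 for 1, 1, 1 and 0 of them. In NP relative to N their medians were -0.17, -1.33, 0.24 and -0.42, and 1 neutrophil gene was called lower (limma). Unadjusted *P* values were then under 0.05 for 1, 2, 2 and 0. Thymus and lymph node tissue also express members. Of 9 thymus genes, *Rag1*, *Rag2* and *Dntt* were listed at 0 in every library, with sums of 2.21 to 2.83, 2.55 to 4.13 and 1.56 to 3.22 FPKM. Only 2 of the 9 passed the filter, and 6 were tested without it. In either fit 0 were called and 0 had an unadjusted *P* value under 0.05 (limma). Of 6 genes of lymph node stroma, 4 passed the filter, whereas *Madcam1* and *Glycam1* were listed at 0 in every library. The sums of this list were 92.7 to 106.5, 92.1 to 124.4 and 93.6 to 114.5 FPKM. *Cxcl13* was higher in the N group (2.205, adjusted *P* = 0.00804, limma) and lower in the NP group (-1.54, adjusted *P* = 0.0295), and *Ccl19* was higher in the N group (1.60, adjusted *P* = 0.0232). The part of these cells in the differences of the members was not tested.

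Of 6 atrial genes, all 6 were higher in N relative to C whereas 0 were called and 0 had an unadjusted *P* value under 0.05 in NP relative to N (limma). Their sum was 175.7 to 307.8 FPKM in C, 3703 to 5222 in N and 3789 to 6240.2 in NP, and *Sln* was at 0 and 0.450 FPKM in the C libraries. The amount of atrium, the depth and the diet thus cannot be told apart in N relative to C. Of 7 adipocyte genes, 6 passed the filter and 0 were called by limma. Unadjusted *P* values were under 0.05 for 5 in N relative to C and for 1 in NP relative to N (limma). The sum of the 7 genes was 33.1 to 33.7 FPKM in C, 78.0 to 81.3 in N and 23.6 to 67.6 in NP. Of 7 liver genes, 0 were called by limma, with unadjusted *P* values under 0.05 for 6 in N relative to C and for 0 in NP relative to N, and their sum was 72.0 and 628.2 FPKM in the C libraries and 37.1 to 63.3 in the others.

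Genes of the interferon response were taken as a further reference. Of 17 genes of the interferon-gamma and MHC response, 15 were higher in N relative to C and 16 were lower in NP relative to N (limma), with medians of 2.59 and -2.93. These genes include those for antigen presentation to T cells, and their relation to the members was not tested.

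Among themselves, the members had a median Pearson correlation of 0.93 over the 6 libraries on the log2(FPKM + 1) scale, over 45 pairs, with a lowest value of 0.45. Of the 12918 other genes tested, those most like the mean profile of the members were *Tnfsf10*, *Prkcb*, *Psd4*, *Erap1*, *H2-M3*, *A130077B15Rik*, *Psmb9* and *Irf9*, with correlations between 0.997 and 0.999. *Prkcb* encodes a protein kinase C of lymphocytes and other cells and was at 0.460 and 0.452 FPKM in C, 1.32 and 1.38 in N and 0.531 and 0.489 in NP. *Erap1*, which trims peptides for MHC class I, was at 13.4 and 13.7, 28.9 and 30.01, and 13.5 and 13.2 FPKM. *Psmb9*, a subunit of the immunoproteasome, was at 8.93 and 7.58, 64.2 and 77.3, and 7.94 and 8.43 FPKM, and *Irf9*, a transcription factor of interferon signalling, was at 8.83 and 7.61, 29.6 and 28.0, and 8.60 and 7.84 FPKM. In total 1.94% of the other genes had a correlation over 0.95. The points are 6 libraries in 3 groups, so that these values describe the split of the N libraries from the rest and not a relation within a group. The C libraries also differ from the N and NP libraries in depth and atrial content.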

How the data were processed

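Heart RNA of the C, N and NP groups was analysed as 6 libraries, grouped by the sample titles. The authors sequenced 75-base single-end reads from stranded mRNA libraries, mapped them to mm10 with TopHat2 2.0.13, Bowtie2 2.2.3 and SAMtools 0.1.19, and deposited FPKM from Cufflinks 2.2.1. Read counts were not used here.

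The scale used was log2(FPKM + 1), with no other scaling. Genes with a mean of at least 0.5 FPKM over the 6 libraries (12923 genes) were tested with limma 3.58.1 in R 4.3.3, in a model with 3 groups and 3 residual degrees of freedom, with a variance trend. Adjustment of *P* values was by Benjamini-Hochberg over all genes tested, at 0.05. Members under this mean were tested in the same way among all 17880 genes above 0. With 2 libraries a group, the smallest *P* value of an exact permutation test is 0.333, and no such test was run. Depth and reads were estimated from steps in the low FPKM of 3915 single-transcript genes (GENCODE M21), with 200 bases taken off the transcript length, and 75.3% to 79.4% of low values lay within 0.1 of a whole number. Intervals of read ratios are exact 95% intervals and cover counting error only. The depth estimate and the limma calls were tested on simulated data. The simulated reads used the same length correction as the depth estimate, so that this test cannot reveal a wrong correction. The reads per gene, which depend on the transcript length chosen, were not tested. Python 3.11.15 with numpy 2.4.6, pandas 2.3.3, scipy 1.17.1 and matplotlib 3.10.9 was used for tables and plots.

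The members and lists were chosen with earlier results of these data known. The genes to be named were all members, up to 6 called genes of each pathway list, the first 3 and up to 3 called genes of each marker list, the 8 genes most like the members, and 2 reference genes, of which *Ptprc* is given and the other is not reported here. The text names a part of them, chosen after the values were seen. Genes of the pathway lists that were not called lie outside this rule. Beside those marked where they are named, these are *Ncr1*, *Fasl*, *Ifng*, *Il15*, *Il15ra*, *Il2ra* and *Il2*. In the alternatives, the pseudocount, the filter, the scaling, the model and the libraries were changed. Protein sequences were not used here.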

Additional observations from a re-analysis of the deposited data

How the results depend on the processing

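No member changed direction in N relative to C or in NP relative to N under any alternative run, but calls were lost. Over 14 to 16 alternatives, the adjusted *P* values (limma) in these comparisons reached 0.0652 and 0.0513 for *Nkg7*, which lost 1 call in each, 0.0625 and 0.0638 for *Il2rb* (2 and 3 calls lost), 0.137 and 0.0980 for *Il2rg* (3 and 7 lost), 0.232 and 0.214 for *Gzmb* (9 and 12 lost) and 0.199 and 0.237 for *Prf1* (11 and 12 lost). The alternatives for members under the filter, run without it, were added after seeing the data. In these comparisons 200 and 179 genes and 4 and 4 members were called with the filter, and 5 genes and 0 members were called in NP relative to C. With a pseudocount of 0.1, 2 and 1 members and, in NP relative to C, 12 genes were called. Scaling the libraries to the same total, which moved the median of all genes in N relative to C from -0.03 to 0.12, gave 309 genes in N relative to C and 10 in NP relative to C, with 4 and 4 members still called. With only the 2 groups compared in the model, 78 genes and 2 members were called in NP relative to N. Without a filter, 0 genes were called in NP relative to C.

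The replicate numbers were tried as a pairing. Across 12923 genes, the deviations of libraries with the same number had a Pearson correlation of 0.0471 for C and N, 0.124 for C and NP and 0.458 for N and NP, and the names under which the N and NP libraries were deposited have one form for replicate 1 and another for replicate 2. What these names mark is not given in the sources used here, so that the numbers were not taken as a pairing. With the replicate block, 328, 200 and 20 genes and 4, 3 and 0 members were called in N relative to C, NP relative to N and NP relative to C. *Gzmb* in NP relative to N (adjusted *P* = 0.0657) and *Prf1* in both comparisons (0.0612 and 0.0846) lost their calls under the block (limma).

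When each library was left out in turn, the lone library of its group was assumed to vary like the others. In N relative to C, 49 genes (without C replicate 2) to 183 genes (without C replicate 1) and 1 to 4 members were called. Without C replicate 1, 88 of these genes were higher and 95 were lower, against 191 and 9 with all libraries. In NP relative to N, 67 to 108 genes and 1 to 2 members were called, and in NP relative to C 5 to 101 genes.

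In NP relative to C, where no member was called, all members but *Il2rg* changed sign when some single library was left out. The range was -0.048 to 0.087 for *Cd3e*, -0.14 to 0.052 for *Cd3g*, -0.054 to 0.17 for *Cd8a*, -0.071 to 0.067 for *Cd8b1*, -0.19 to 0.071 for *Nkg7*, -0.12 to 0.050 for *Gzma*, -0.13 to 0.25 for *Gzmb*, -0.035 to 0.14 for *Prf1* and -0.10 to 0.22 for *Il2rb*. With quantile normalization *Cd8b1*, *Nkg7* and *Gzma* were at 0.013, 0.065 and 0.097, and with the same total *Cd8b1* was at 0.0080. The cause of these changes was not tested. The values of the members in the C and NP groups are mostly at or under 3 reads, and depth limits any comparison between them. Reads summed over the 8 members other than *Il2rb* and *Il2rg* stayed within 1.5 times in each library with the full transcript length. Apart from the alternatives given above, those run left the counts of members called within 1.5 times.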
